A study of Mus musculus with 24 samples.

Results

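The Wnt ligands examined here are 10 genes, Wnt3, Wnt3a, Wnt4, Wnt5a, Wnt5b, Wnt6, Wnt7b, Wnt8a, Wnt10b and Wnt11. They were taken by gene symbol from a table of raw counts that lists 35591 genes, among them 19 Wnt ligand genes, and were followed in all 24 libraries. The libraries came from 6 male mouse embryonic stem cell (mESC) lines, 3 control lines (wt) and 3 lines in which one Smchd1 allele was deleted (het). SMCHD1 is an epigenetic silencer that acts on the inactive X chromosome, imprinted genes and Hox clusters. Each line was sampled 4 times, at day 0, day 2, day 2.5 and day 3, on its way toward neuromesodermal progenitors (NMPs), the bipotent cells of the tailbud that give rise to spinal cord and paraxial mesoderm, so there were 8 groups of 3 libraries.

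All lines came from one cross, of Castaneus females that were wild type for Smchd1 with males of C57BL/6 background carrying a deleted and a floxed Smchd1 allele together with the MMTV-Cre transgene. The het cells (Smchd1[del/+]) therefore had the deleted allele from the father and an intact Castaneus allele from the mother, and the wt cells (Smchd1[fl/+]) carried the floxed allele in place of the deleted one. Each line grew out of a single blastocyst, so the replicates of a group are separate lines, and a difference between genotypes is also a difference between sets of 3 lines. The labels place the day 0 cells in DME with LIF. The lines had been kept in 2i + LIF medium, which holds CHIR99021, and by the methods were moved before day 0 in steps toward serum medium with LIF, through mixtures of both. From day 0 they passed into serum-free N2B27 medium with basic FGF, and from day 2 the medium also held CHIR99021, an inhibitor of the kinase GSK3. No library here was kept without CHIR99021 after day 2. For every change after day 2, the effect of CHIR99021 and that of more time in culture therefore cannot be told apart.

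Wnt ligands are secreted, lipid-modified glycoproteins. PORCN attaches the lipid, WLS carries the ligand to the cell surface, and Frizzled receptors with LRP5 or LRP6 receive it; β-catenin then escapes GSK3-dependent destruction and acts with TCF/LEF factors on targets such as Axin2. Other ligands signal through ROR2, RYK and the planar polarity proteins instead. In the tailbud, Wnt signalling maintains NMPs and drives paraxial mesoderm. CHIR99021 blocks GSK3 inside the cell and switches the β-catenin branch on without a ligand. By their best known roles, Wnt3, Wnt3a and Wnt8a act through β-catenin in the primitive streak and tailbud, Wnt5a, Wnt5b and Wnt11 are best known for β-catenin-independent signalling and cell movement, and Wnt4, Wnt6, Wnt7b and Wnt10b are known mainly from organ development.

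The 10 genes lie on 8 chromosomes of GRCm38, all as protein-coding genes. Wnt3 is at chr11:103774150-103817957 (+), Wnt3a at chr11:59248033-59290752 (-), Wnt4 at chr4:137277489-137299726 (+), Wnt5a at chr14:28504750-28527448 (+) and Wnt5b at chr6:119432531-119544347 (-). Wnt6 is at chr1:74771892-74785322 (+), Wnt7b at chr15:85535437-85582473 (-), Wnt8a at chr18:34542313-34548273 (+), Wnt10b at chr15:98770712-98778150 (-) and Wnt11 at chr7:98835112-98855195 (+). A ligand gene that is not among the 10 lies close to 4 of them, Wnt9b 24329 bp from Wnt3, Wnt9a 16176 bp from Wnt3a, Wnt10a 6194 bp from Wnt6 and Wnt1 11707 bp from Wnt10b. Exons of Wnt5a, Wnt7b and Wnt11 share 358, 324 and 364 bp with a gene on the other strand (Gm2670, AU022754 and Gm8398), and since the methods name a kit that does not mark strand beside one that does, reads there cannot be assigned to either gene with certainty.

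The upstream windows of Wnt5b and Wnt11 are shown because these 2 genes gave, respectively, the largest fitted rise after CHIR99021 among the ligands with reads in every day 2 library, and the one called difference between genotypes. Each is 250 bases upstream of an annotated start from RefSeq on GRCm38.p6, written 5′ to 3′ on the strand of the gene. Capitals mark 2 motifs that were searched on both strands, the TCF/LEF motif, spelled CTTTGAT, and the CDX motif, spelled TTTATNG; a TCF/LEF match on the opposite strand appears as its reverse complement. The outermost window of each gene and the 1 internal window with a motif were chosen for printing; another internal window of Wnt5b, chr6:119467212-119467461 (-), and one of Wnt11, chr7:98838595-98838844 (+), hold neither motif. The first line is the outermost Wnt5b window, chr6:119544348-119544597 (-), the second an internal Wnt5b start, chr6:119449387-119449636 (-), and the third the outermost Wnt11 window, chr7:98834862-98835111 (+).

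Wnt5b outer start: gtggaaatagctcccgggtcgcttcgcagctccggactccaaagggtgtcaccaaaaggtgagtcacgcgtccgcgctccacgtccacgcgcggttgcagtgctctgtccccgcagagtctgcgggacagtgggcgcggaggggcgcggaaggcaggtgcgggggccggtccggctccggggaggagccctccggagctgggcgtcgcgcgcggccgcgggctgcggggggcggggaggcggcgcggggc
Wnt5b internal start: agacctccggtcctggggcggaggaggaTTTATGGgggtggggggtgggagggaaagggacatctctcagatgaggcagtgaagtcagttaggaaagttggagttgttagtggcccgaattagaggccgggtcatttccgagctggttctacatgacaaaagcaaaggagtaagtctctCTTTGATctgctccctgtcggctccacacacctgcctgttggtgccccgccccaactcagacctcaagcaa
Wnt11 outer start: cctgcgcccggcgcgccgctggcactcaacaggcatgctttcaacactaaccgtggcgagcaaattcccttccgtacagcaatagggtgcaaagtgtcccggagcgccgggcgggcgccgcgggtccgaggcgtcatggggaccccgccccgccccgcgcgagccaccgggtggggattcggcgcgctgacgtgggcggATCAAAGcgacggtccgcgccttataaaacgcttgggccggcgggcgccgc

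The TCF/LEF motif began 71 bases upstream of the internal Wnt5b start and 51 bases upstream of the outer Wnt11 start, and the CDX motif 222 bases upstream of the internal Wnt5b start. Of all 32851 promoter windows of the same length, 3.21% held CTTTGAT and 9.81% held TTTATNG. RefSeq windows were used for 7 of the 10 genes, 10 windows in all, and the 8 windows other than the 2 just described held neither motif. The 10 windows were 53.2% to 87.6% G or C, against a median of 52.4% over all windows. Windows of Wnt5a, Wnt7b and Wnt8a were not among those used here. Any window of the 10 genes on chromosome 18, where Wnt8a lies, was left out by the search itself.

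The libraries held 7.10 to 20.8 M counted reads each (median 17.9 M), the smallest being wt line 2 at day 2.5. CPM stands for the reads of a gene per 1 M reads of the library, after scaling of the library totals by edgeR's TMM factors. Log2 CPM of libraries of one group correlated at 0.971 to 0.992, and no 2 libraries were identical. Smchd1 was at 124 to 217 CPM in wt and 87.3 to 124 CPM in het libraries, without overlap on any day; its log2 change in het was -0.61, -0.75, -0.60 and -0.88 from day 0 to day 3, with adjusted p of 0.1004, 0.00824, 0.907 and 0.0307 (edgeR quasi-likelihood test, Benjamini-Hochberg over all tested genes, as throughout). Wt line 1 stood apart on chromosome 8, where 815 genes were higher than in the other lines by a median of 0.201 on the log2 scale; the medians for the members' 8 chromosomes lay between -0.0547 and 0.0441 in every line. Several marker lists moved with the days in both genotypes. All 8 naive pluripotency markers fell by day 2, 6 of 7 caudal epiblast and NMP markers rose by day 2.5, and 4 of 4 tested paraxial mesoderm markers rose by day 3. The 7th NMP marker, Sox2, fell by 0.70 in wt and by 0.45 in het cells at day 2.5 on the log2 scale. The summed level of 19 endoderm markers rose too, from a mean of 2914 to 11325 CPM in wt and 1730 to 5685 CPM in het cells by day 2. Summed neural markers were at 6.76, 28.7 and 3.47 CPM in wt cells at day 0, 2 and 2.5, and at 7.99, 30.8 and 3.87 CPM in het cells. Fgf5, an epiblast marker, was level from day 0 to day 2, at 10.8 CPM on both days in wt and 11.8 and 11.5 CPM in het cells. Among all tested genes, 44.3% in wt and 56.1% in het cells were called at the day 2 step, 29.1% and 44.7% at the day 2.5 step, and 19.1% and 29.8% at the day 3 step.

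Transcript from the ligand genes as a whole rose steeply at the day 2.5 step and then came mostly from Wnt8a and Wnt5b. Per length, as CPM per kilobase of exon (RPKM), the 19 ligand genes together were at 12.5 ± 0.761 in wt and 11.6 ± 0.822 in het cells at day 0 (mean ± SD over 3 lines, as throughout), and at 18.9 ± 5.13 and 15.8 ± 0.395 at day 2. At day 2.5, after CHIR99021, they reached 116 ± 22.0 and 110 ± 7.40 RPKM, and at day 3 95.3 ± 11.2 and 113 ± 20.4 RPKM. The 10 genes made up 80.7% to 99.2% of this total in every library. Since these are bulk libraries, more cells that express a ligand and more RNA per cell cannot be told apart here or in any level given below.

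**Figure D1:**
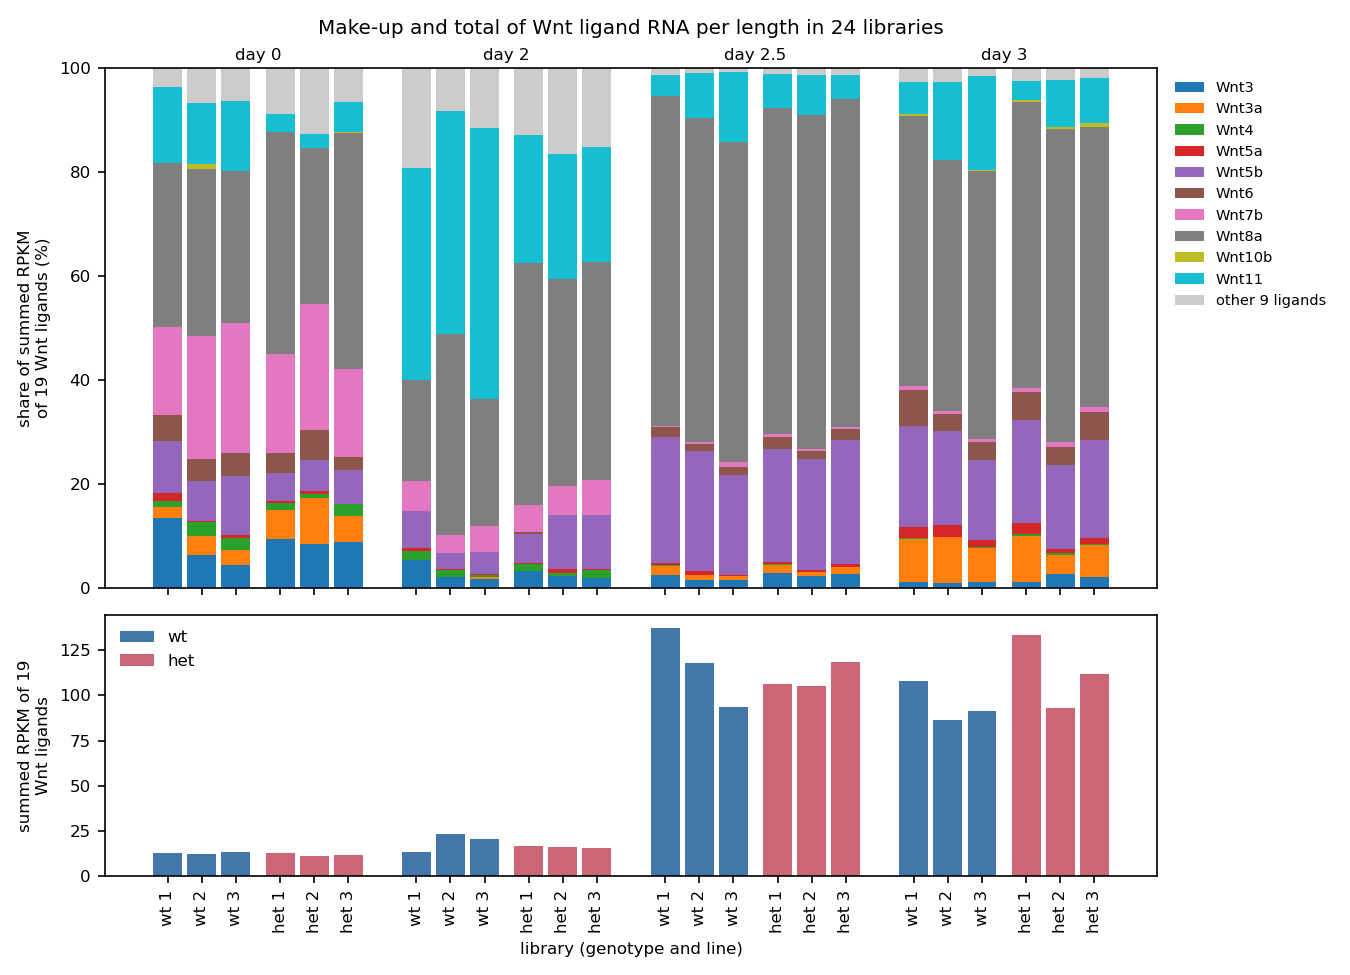
Upper bars, share of the summed RPKM of the 19 Wnt ligand genes (percent) held by each of the 10 ligands and by the other 9 together, one bar per library ordered by day and line; lower bars, the summed RPKM itself. On average over 3 lines Wnt8a, Wnt7b and Wnt11 lead at day 0 in wt cells, Wnt11 and Wnt8a at day 2, and Wnt8a with Wnt5b at day 2.5, when Wnt8a holds 62.4% in wt and 63.3% in het cells.

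The order of the ligands by RPKM changed from day to day. At day 0 Wnt8a led in both genotypes, at 3.85 ± 0.0556 RPKM in wt and 4.58 ± 1.17 RPKM in het cells, followed by Wnt7b, and the lines of these neighbours did not overlap. At day 2 Wnt11 led in wt cells at 8.62 ± 2.83 RPKM, overlapping with Wnt8a at 5.49 ± 3.23 RPKM, whereas in het cells Wnt8a led at 6.74 ± 0.680 RPKM with Wnt11 apart below it at 3.72 ± 0.289 RPKM. At day 2.5 the wt order was Wnt8a at 72.8 ± 14.96, Wnt5b at 26.1 ± 7.72 and Wnt11 at 9.48 ± 3.62 RPKM, each apart from the next, with Wnt3, Wnt6 and Wnt3a overlapping each other at lower levels. At day 3 Wnt8a still led in wt cells at 48.2 ± 7.26 RPKM, and Wnt5b, Wnt11, Wnt3a and Wnt6 followed with each overlapping its neighbour. Wnt4 and Wnt10b held the lowest positions at day 3 in wt cells, at 0.153 ± 0.122 and 0.220 ± 0.203 RPKM. Outside the 10, Wnt9a held 10.3% of the ligand total in wt and 12.9% in het cells at day 2.

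Wnt8a, which signals through β-catenin in the early streak, was low until day 2 and was the most abundant ligand after CHIR99021. It was at 6.75, 6.60 and 6.79 CPM in wt lines 1, 2 and 3 at day 0 and at 9.26, 5.66 and 9.09 CPM in het lines 1, 2 and 3. At day 2 it was at 4.44, 15.6 and 8.70 CPM in wt and 13.1, 11.0 and 11.2 CPM in het lines. At day 2.5 the wt lines reached 153, 128 and 100 CPM and the het lines 116, 118 and 131 CPM. Every day 2.5 library thus lay above every day 2 library. The log2 change was 3.73 (SE 0.33, adjusted p = 7.66e-06) in wt and 3.35 (SE 0.11, adjusted p = 1.15e-10) in het cells. At day 3 the values were 97.9, 72.8 and 82.0 CPM in wt and 128, 97.6 and 106 CPM in het lines. All 3 wt lines were lower at day 3 than at day 2.5, by -0.59 on the log2 scale (SE 0.16, adjusted p = 0.0260), and the het change was -0.16 (adjusted p = 0.250). The wt call was absent without line 2 or 3 of day 3 (adjusted p = 0.101 and 0.0965) or line 1 or 2 of day 2.5 (0.0567 and 0.0852).

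Wnt5b, a relative of Wnt5a known for signalling outside the β-catenin branch, followed nearly the same course. Over the 24 libraries its log2 CPM correlated with that of Wnt8a at 0.974, the highest value of any pair among the 10, a description that includes the shared days and libraries. It was at 2.47, 1.86 and 2.24 CPM in the wt lines at day 2 and at 2.46, 4.41 and 4.24 CPM in the het lines. At day 2.5 it was at 88.3, 72.1 and 47.6 CPM in wt and 61.1, 59.5 and 75.2 CPM in het lines. The days did not overlap in either genotype. The log2 rise was 4.97 (SE 0.26, adjusted p = 6.13e-08) in wt and 4.12 (SE 0.19, adjusted p = 1.67e-09) in het cells. By day 3 Wnt5b was at 55.8, 41.6 and 37.5 CPM in wt and 69.7, 39.4 and 55.7 CPM in het lines.

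Wnt3, the ligand needed for formation of the primitive streak, had the same direction on a smaller scale. At day 0 it was at 5.13, 2.30 and 1.80 CPM in wt and 3.63, 2.86 and 3.12 CPM in het lines. It was at 2.17, 1.54 and 1.14 CPM in wt and 1.62, 1.13 and 0.979 CPM in het lines at day 2. At day 2.5 it was at 11.0, 5.94 and 4.77 CPM in wt and 9.63, 7.41 and 9.74 CPM in het lines, above all day 2 values. The log2 change was 2.16 (SE 0.42, adjusted p = 0.00208) in wt and 2.81 (SE 0.31, adjusted p = 8.10e-06) in het cells. At day 3 the wt lines held 4.27, 2.95 and 3.35 CPM and the het lines 5.22, 7.73 and 7.73 CPM.

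**Figure D2:**
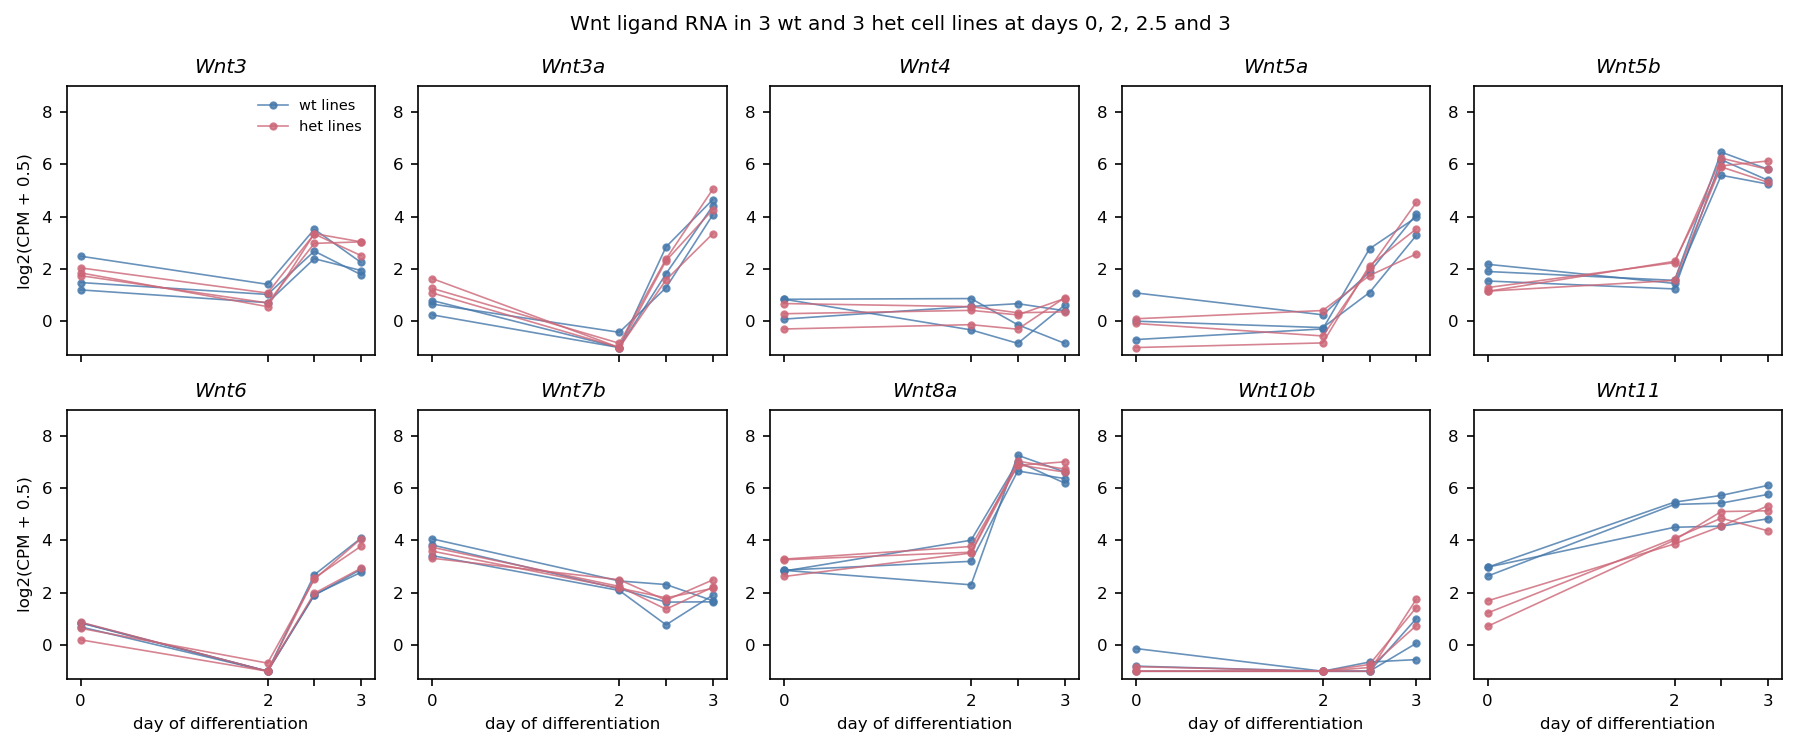
Level of each of the 10 ligands as log2(CPM + 0.5) (vertical axis) against day of differentiation (horizontal axis; the tick without a label is day 2.5), one trace per mESC line, wt in blue and het in red. Wnt8a, Wnt5b and Wnt3 are at their highest at day 2.5 in most lines, Wnt3a, Wnt5a, Wnt6 and Wnt10b are higher at day 3 than at day 2.5, Wnt7b is highest at day 0, and Wnt11 rises between day 0 and day 2.

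Wnt3a, Wnt5a, Wnt6 and Wnt10b were higher at day 3 than at day 2.5 in every line, a step that was called for all of them in het cells and for Wnt3a and Wnt5a in wt cells; with the line as a block Wnt6 was called in wt cells too (1.21, adjusted p = 0.00145). Wnt3a, the ligand that maintains NMPs and paraxial mesoderm in the tailbud, was detected with 0, 0 and 5 reads in wt and 1, 0 and 0 reads in het lines at day 2. It then gave 122, 22 and 33 reads in wt and 96, 48 and 89 reads in het lines at day 2.5, and 538, 346 and 268 against 639, 206 and 382 reads at day 3. At day 3 this was 24.7, 20.8 and 16.3 CPM in wt and 32.7, 9.71 and 18.8 CPM in het lines. Each step separated the days in every line. The wt log2 change was 5.42 (SE 0.94, adjusted p = 0.00102) at day 2.5 and 2.38 (SE 0.38, adjusted p = 0.00297) at day 3; the het change at day 3 was 2.36 (SE 0.38, adjusted p = 0.00109). In het cells, with 1 read at day 2, the ratio of day 2.5 to day 2 was 192 with an exact 95% counting interval of 34.0 to 7597.

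Wnt6, known from the somite epithelium and other epithelia, gave no read in any wt line at day 2 and 2, 0 and 0 reads in the het lines, after 21, 19 and 18 reads in wt and 19, 21 and 10 reads in het lines at day 0. At day 2.5 it gave 108, 24 and 55 reads in wt and 106, 66 and 107 reads in het lines. It was therefore at least 24.5-fold lower in wt cells at day 2 than at day 0, taking 3 reads over the group as the most that a count of 0 allows, and at least 82.1-fold higher at day 2.5 than at day 2. The corresponding het ratios were a fall of 24.9-fold (interval 6.53 to 211) and a rise of 115-fold (interval 31.4 to 952). At day 3 it was at 16.5, 6.38 and 6.95 CPM in wt and 16.3, 7.16 and 13.2 CPM in het lines. These bounds and intervals cover counting error only.

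Wnt5a, the ligand of ROR2 in axis elongation, was at 0.0652 to 0.834 CPM in all day 2 libraries. It was at 3.19, 6.35 and 1.65 CPM in wt and 3.59, 2.87 and 3.89 CPM in het lines at day 2.5, and at 16.5, 15.3 and 9.26 against 22.9, 5.47 and 11.1 CPM at day 3. Both steps were upward in each of the 6 lines. The log2 rise at day 2.5 was 2.98 (SE 0.65, adjusted p = 0.00428) in wt and 3.19 (SE 0.67, adjusted p = 0.00150) in het cells, and at day 3 1.98 (SE 0.42, adjusted p = 0.0100) and 1.90 (SE 0.41, adjusted p = 0.00532).

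Wnt10b, known from bone and mammary gland, had no read in any of the 6 libraries at day 2. At day 3 it gave 33, 3 and 9 reads in wt and 43, 25 and 58 reads in het lines. It did not pass the low-count filter for the wt step. Over the group its day 3 to day 2.5 ratio was 34.8 in wt (interval 5.94 to 1405, with 1 read at day 2.5) and 40.8 in het cells (interval 13.6 to 201), where the change was called (adjusted p = 0.000484).

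Wnt7b, which acts in the placenta and lung, fell on leaving the day 0 medium. It was at 10.2, 13.7 and 16.2 CPM in wt and 11.6, 12.8 and 9.48 CPM in het lines at day 0. At day 2 it was at 3.75, 3.94 and 4.97 CPM in wt and 4.02, 4.23 and 5.15 CPM in het lines, below every day 0 value. The log2 change was -1.65 (SE 0.27, adjusted p = 0.000237) in wt and -1.33 (SE 0.23, adjusted p = 0.000129) in het cells. It made up 21.8% of the wt ligand RPKM at day 0 and 0.536% at day 2.5. From day 2.5 to day 3 it was higher in 2 of the 3 wt lines and all 3 het lines, with a het change of 0.73 (adjusted p = 0.0510).

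Wnt11, known for cell movement in gastrulation and for heart and kidney development, moved before CHIR99021 was added. At day 0 it was at 7.38, 5.72 and 7.36 CPM in wt and 1.84, 1.14 and 2.73 CPM in het lines, and at day 2 at 22.2, 41.1 and 43.7 against 16.4, 15.7 and 14.1 CPM. Wnt11 rose in all 6 lines. The log2 change was 2.39 (SE 0.25, adjusted p = 4.55e-06) in wt and 3.02 (SE 0.28, adjusted p = 2.07e-07) in het cells. After CHIR99021 it was at 22.9, 42.5 and 52.3 CPM in wt and 28.4, 33.9 and 22.8 CPM in het lines at day 2.5, a called rise of 0.86 (SE 0.17, adjusted p = 0.000800) in het and a change of 0.13 (adjusted p = 0.767) in wt cells. Of 16 tested endoderm markers, 11 rose in each genotype at day 2, and at day 2.5 11 rose in het cells, while 1 rose and 1 fell in wt cells; of all genes 44.3% in wt and 56.1% in het cells were called at day 2, and 29.1% and 44.7% at day 2.5. The part of endoderm cells in these steps was not tested. Whether the wt and het changes at day 2.5 differ was tested as an interaction, which gave 0.74 (adjusted p = 0.952).

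Wnt4, known from kidney and ovary development, gave 1 to 29 reads per library throughout, and no step was called in either genotype.

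Counted over the 10 genes, the steps went as follows. From day 0 to day 2, 8 of the 10 (not Wnt5a and Wnt10b) passed the filter on low counts in wt cells and 4 were called, Wnt11 higher and Wnt3a, Wnt6 and Wnt7b lower, against 44.3% of all 15521 tested genes. In het cells the same 8 passed and 7 were called against 56.1% of all genes. Wnt11, Wnt5b and Wnt8a were higher, by 3.02, 1.05 (SE 0.40, adjusted p = 0.0366) and 0.56 (SE 0.22, adjusted p = 0.0390) on the log2 scale, and Wnt3, Wnt3a, Wnt6 and Wnt7b were lower. With the line as a block the het count was 6, since Wnt5b had an adjusted p of 0.0658. The fall of Wnt3a in wt cells, -3.47 (SE 1.22, adjusted p = 0.0321), had an adjusted p of 0.0642 without the filter on low counts, and of 0.0924 to 0.124 without wt line 1 or 2 of day 2 or line 2 or 3 of day 0. In het cells the Wnt5b call was absent without any one of 5 libraries, all but line 1 of day 2 (adjusted p = 0.0736 to 0.103). The Wnt8a call was absent without line 1 of day 2 or line 2 or 3 of day 0 (0.0505 to 0.185) and in one fit of all libraries (0.0838), and the Wnt3 call without line 1 or 3 of day 0 (0.0883 and 0.0525).

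From day 2 to day 2.5, 9 of the 10 passed in each genotype, all but Wnt10b. In wt cells 6 rose, Wnt3, Wnt3a, Wnt5a, Wnt5b, Wnt6 and Wnt8a, and none fell; 14.6% of all genes were called higher and 29.1% were called in either direction. In het cells the same 6 and Wnt11 rose, 7 in all, against 21.8% of genes called higher and 44.7% in either direction. From day 2.5 to day 3, 3 of 9 tested were called in wt cells, Wnt3a and Wnt5a higher and Wnt8a lower, against 19.1% of all genes, and 4 of 10 in het cells, Wnt3a, Wnt5a, Wnt6 and Wnt10b, all higher, against 13.8% of genes called higher and 29.8% in either direction. With the line as a block the number of all genes called in wt cells at this step rose from 2923 to 4687 of 15292, and that of the ligands from 3 to 7, adding Wnt6 at 1.21 (adjusted p = 0.00145), Wnt11 at 0.34 (adjusted p = 0.0388), Wnt5b at -0.59 (adjusted p = 0.00144) and Wnt3 at -0.97 (adjusted p = 0.0164).

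**Figure D3:**
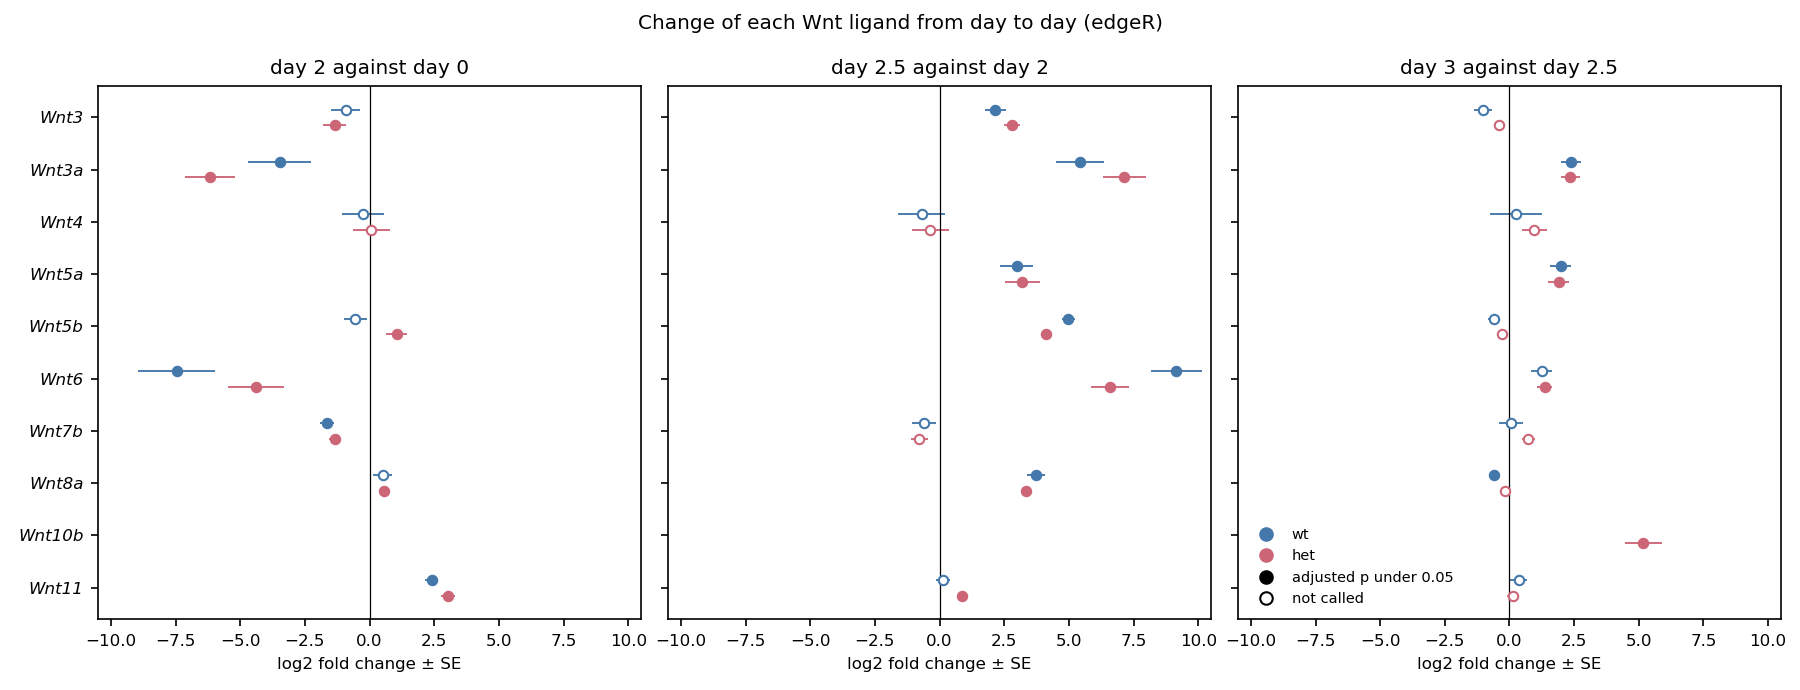
Fitted log2 change of each ligand (horizontal axis) over each step between sampled days, wt in blue and het in red, with bars of 1 SE, no point where a gene did not pass the low-count filter, and filled points for adjusted p under 0.05. The points of Wnt3, Wnt3a, Wnt5a, Wnt5b, Wnt6 and Wnt8a lie to the right of 0 in both genotypes at the day 2.5 step; values for genes with no reads on one day depend on the prior count of the fit.

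The comparison of het with wt cells asks whether loss of the paternal Smchd1 allele changed the ligands. At day 0, 8 of the 10 passed the filter (not Wnt5a and Wnt10b) and none was called, against 0% of all 15108 genes; before adjustment 1649 genes passed 0.05, and DESeq2 called 60. At day 2, 6 passed (not Wnt3a, Wnt5a, Wnt6 and Wnt10b) and Wnt11 alone was called, against 0.551% of all genes. At day 2.5, 9 passed and none was called, against 0% of all genes; 822 genes passed 0.05 before adjustment and DESeq2 called 3. At day 3 all 10 passed and none was called, against 0.00638% of genes, with 1432 genes passing 0.05 before adjustment and 103 called by DESeq2. Before adjustment 5 of the 10 passed 0.05 at day 3, Wnt3, Wnt7b, Wnt8a and Wnt10b at higher and Wnt11 at lower fitted values in het cells, and 7 did so without wt line 1, where the number over all genes also rose, from 1432 of 15686 to 2477 of 16045, with 93 called. Without any other single library 1 to 4 of the 10 did so, beside 893 to 1408 of all genes. By DESeq2 3 did so and in one fit of all 24 libraries 2, beside 1398 and 1166 of all genes. The median change of the 10 was 0.33, beside -0.00053 over all tested genes. On leaving out one library it was 0.17 (without het line 1) to 0.60 (without wt line 1), beside -0.0086 to 0.0083 over all tested genes. The 10 genes were read in the same lines and are not replicates, and the median was not tested. With counts of each line summed over the days none of the 10 was called, against 0.00544% of genes, with 1663 genes passing 0.05 before adjustment and 127 called by DESeq2.

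Wnt11 was lower in het cells at day 2, by -1.22 on the log2 scale (SE 0.22, adjusted p = 0.0172), and the highest het line, at 16.4 CPM, lay below the lowest wt line, at 22.2 CPM. The call was absent when all 24 libraries were fitted together (-1.21, adjusted p = 0.0979), and without het line 1, 2 or 3 (-1.27, -1.23 and -1.16, adjusted p = 0.161, 0.0997 and 0.132) or wt line 3 (-1.04, adjusted p = 0.144). At day 0 the change was -1.85 (SE 0.34, unadjusted p = 0.000132, adjusted p = 0.334), again with no overlap, from 97 to 118 reads in the wt and 18 to 42 reads in the het lines; it had an adjusted p of 4.45e-05 without the low-count filter, 0.00316 by DESeq2, and 0.0292 and 0.0479 without wt line 1 or wt line 2. At day 2.5 and day 3 the lines of the genotypes overlapped, with changes of -0.46 (adjusted p = 0.908) and -0.67 (adjusted p = 0.537); the day 3 change had an adjusted p of 0.0338 without the filter.

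Genes of endoderm moved with Wnt11. Of 19 endoderm markers, which include Sox17, Sox7, Gata6 and Col4a2, 16 were tested at day 2 and 12 were lower in het cells, against 0.551% of all genes called in either direction, with a median log2 change of -1.05; Sox7 changed by -1.52 and Sox17 by -1.28. Most of these calls were also lost in the fits in which Wnt11 was not called, with medians of similar size. The number of endoderm markers called lower was 0 without het line 1, 0 without het line 3, 1 without het line 2, 2 without wt line 3 and 1 in one fit of all 24 libraries, with medians of -0.86 to -1.12 in these fits, and 85 called genes became 1, 0, 3, 8 and 23. At day 0, 13 of the 16 tested had an unadjusted p under 0.05 and none was called, with a median of -0.85, and the medians at day 2.5 and day 3 were -0.47 and -0.74. The summed level of the 19 endoderm markers at day 2 was 7590 to 15513 CPM in wt and 4603 to 6393 CPM in het libraries, and at day 0 2344 to 3941 and 1361 to 1973 CPM. Afp had no read in the wt libraries at day 0 or the het libraries at day 2 and day 3, and Ttr none at day 0 in either genotype. Per 1000 CPM of the endoderm markers, Wnt11 was at 2.82 to 3.78 CPM in wt and 2.33 to 3.57 CPM in het libraries at day 2, which overlapped, and at 1.87 to 3.15 and 0.580 to 1.471 CPM at day 0, which did not. The part of endoderm cells in the Wnt11 difference was not tested. Of 4 tested trophoblast markers, Tpbpa was lower at day 2, by -1.41.

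**Figure D4:**
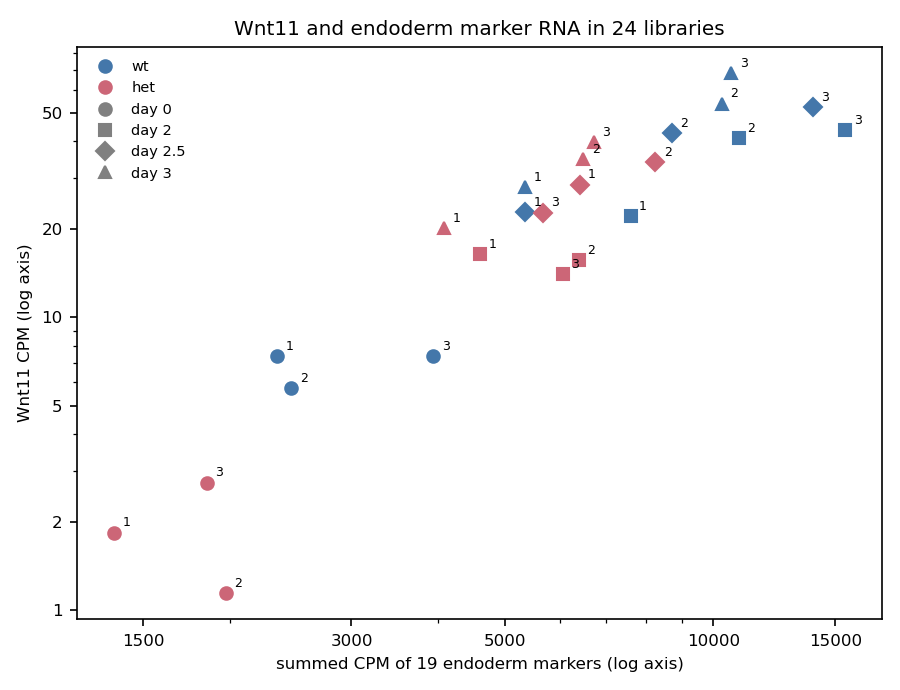
Wnt11 CPM (vertical axis) against the summed CPM of 19 endoderm markers (horizontal axis), both on log axes, one point per library, with genotype by colour, day by symbol and the line number beside it. At day 2 the het libraries lie at 14.1 to 16.4 CPM of Wnt11 and 4603 to 6393 CPM of the markers, below and to the left of the wt libraries.

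None of the other ligands was called between genotypes on any day. At day 0 the lines of het and wt cells did not overlap for Wnt5b, lower in het at 1.72 to 1.95 against 2.42 to 4.04 CPM, and Wnt3a, higher in het at 1.62 to 2.61 against 0.688 to 1.24 CPM; with Wnt11 this made 3 of 8 tested, against 16.5% of all genes. The changes were -0.86 (adjusted p = 0.444) and 1.007 (adjusted p = 0.487). At day 2 Wnt11 was the only one of 6 without overlap, against 15.8% of genes, and at day 2.5 there was none, against 11.6%. At day 3 Wnt3 and Wnt7b were higher in all het lines than in all wt lines. Wnt8a overlapped on the CPM given here, with het line 2 at 97.6 CPM and wt line 1 at 97.9 CPM. The shares over all genes rest on TMM factors from the compared groups alone. On that scale Wnt8a was also apart, which made 3 of 10, against 13.9% of all genes. The 4 epiblast markers on the same day had a median log2 change of 0.98 in het cells, with all 4 positive, 3 passing 0.05 before adjustment and none called. Their summed level was 144 to 188.1 CPM in wt and 188.4 to 266 CPM in het libraries, and their part in the ligand values was not tested. Over the summed counts no ligand was free of overlap, against 13.8% of genes. The log2 changes of Wnt3, Wnt7b and Wnt8a at day 3 were 0.95 (adjusted p = 0.316), 0.60 (adjusted p = 0.522) and 0.38 (adjusted p = 0.408), so none was called. Wnt10b was at 0.180 to 1.52 CPM in wt and 1.18 to 2.86 CPM in het lines at day 3, which overlapped, with a change of 1.41 (adjusted p = 0.540).

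**Figure D5:**
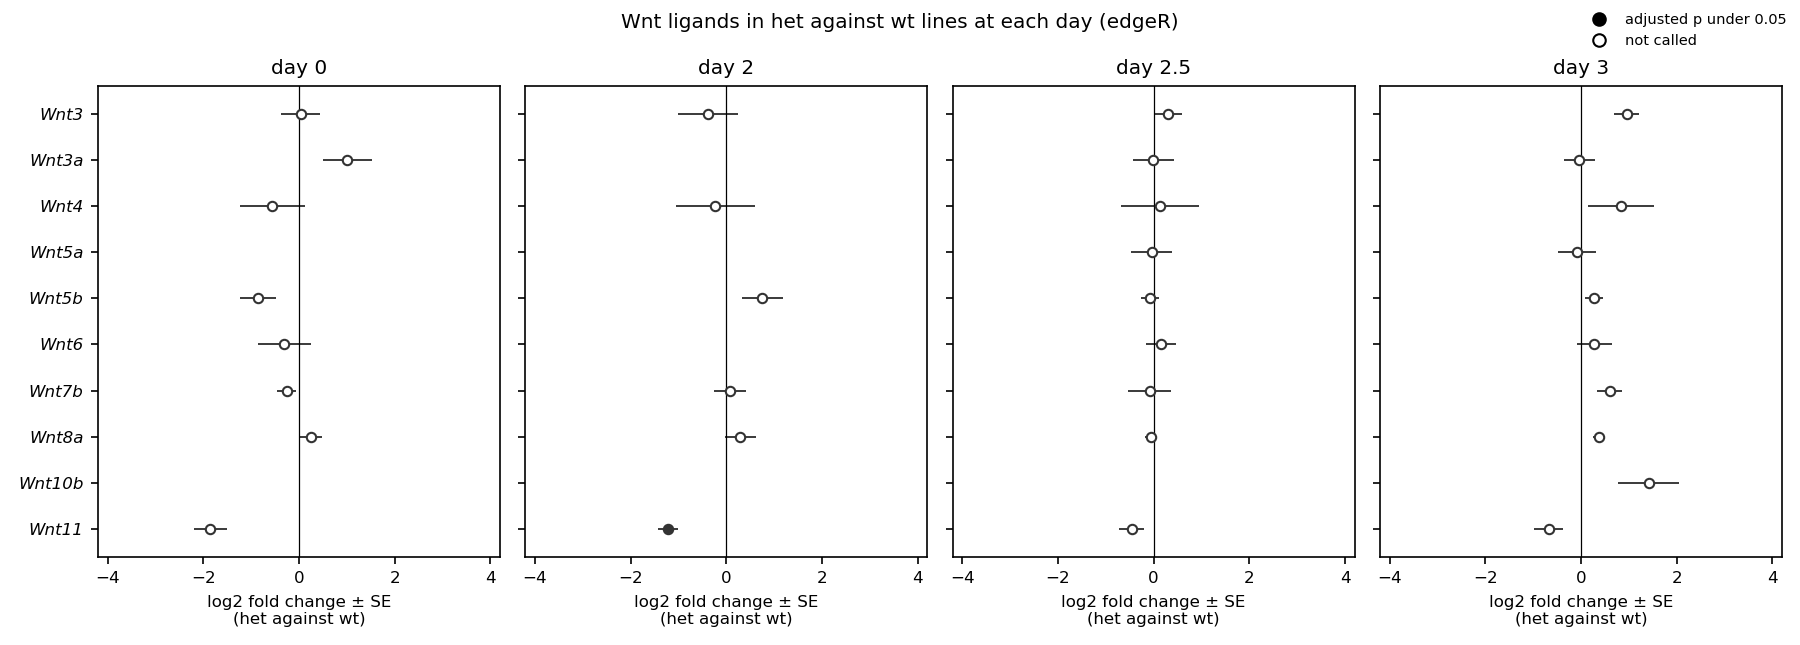
Fitted log2 change of each tested ligand in het against wt cells (horizontal axis) on each day, with bars of 1 SE, no point where a gene did not pass the low-count filter, and filled points for adjusted p under 0.05. Wnt11 lies to the left of 0 on all 4 days and is filled at day 2.

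A single line weighed on the summed comparison. Without wt line 1, 4 of the 10 were called, Wnt3 at 0.98 (adjusted p = 0.0107), Wnt5b at 0.62 (adjusted p = 0.0166) and Wnt8a at 0.56 (adjusted p = 0.00638) higher in het cells and Wnt11 at -0.96 (adjusted p = 0.00562) lower, and 404 genes were called in place of 1. No step differed between the genotypes by the interaction test for any of the 10, against 0% of all genes at each step; before adjustment 1034, 850 and 635 genes passed 0.05 at the first, second and last step, and DESeq2 called 6, 0 and 0. Wnt5b came closest, at 1.61 for the day 2 step (SE 0.57, unadjusted p = 0.0110, adjusted p = 0.754).

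Targets of the β-catenin branch rose after CHIR99021. Among 12 feedback genes and targets, 9 rose and 0 fell in wt and 10 rose and 0 fell in het cells at day 2.5, with medians of 3.88 and 3.96 on the log2 scale beside 0.00 and 0.01 over all genes. Sp5, a target, was at 0 CPM in every day 2 library and at 37.5 to 59.0 CPM in wt and 39.4 to 54.2 CPM in het libraries at day 2.5. At day 2.5, 14.6% of all genes in wt and 21.8% in het cells were called higher. At day 3, 2 rose and 3 fell in wt, and 0 rose and 6 fell in het cells, beside 19.1% and 29.8% of all genes called.

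Of 7 secretion genes, 4 rose and 1 fell at day 2 in each genotype, beside 44.3% of all genes called in wt and 56.1% in het cells. At day 2.5 none was called in wt cells, and in het cells Tmed2 was higher by 0.58 and Vps35 lower, at -0.32. Wls, the carrier of the ligands, had mean levels of 5.89, 31.0, 41.6 and 135 CPM on the 4 days in wt and 5.63, 33.0, 40.2 and 134 CPM in het cells. Of 15 tested receptors and co-receptors, 3 rose and 6 fell at day 2.5 in wt and 5 rose and 7 fell in het cells, beside 29.1% and 44.7% of all genes called. Fzd10 went from 1.64 to 97.0 CPM in wt and 2.40 to 106 CPM in het cells, while Fzd7 went from 177 to 43.4 and from 180 to 40.1 CPM.

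Of 10 tested secreted antagonists and inhibitors, 5 rose and 1 fell in wt and 4 rose and 2 fell in het cells at day 2.5, where 14.6% and 21.8% of all genes were called higher. Dkk4, which blocks the LRP co-receptors, had at most 1 read per library at day 2 and 88.1 to 105 CPM in wt and 73.9 to 107 CPM in het libraries at day 2.5. The list of R-spondins, their LGR receptors and the ligases ZNRF3 and RNF43, which remove Frizzled receptors from the surface, had 1 of 7 tested genes higher in wt and 2 of 8 in het cells at day 3 and 0 lower, beside 19.1% and 29.8% of all genes called. Rspo3, which spares the receptors by binding these ligases, went from 0.633 to 20.5 CPM in wt and from 0.526 to 24.1 CPM in het cells between day 2.5 and day 3. Of 8 tested planar polarity genes, 3 rose and 0 fell in wt and 3 rose and 1 fell in het cells at day 3, beside 19.1% and 29.8% of all genes called. Between genotypes, Frzb, a secreted Wnt-binding antagonist, was the one gene of these lists that was called, at day 2, by -1.49 (adjusted p = 0.0157), with 18.3 to 39.5 CPM in wt and 7.44 to 11.8 CPM in het libraries. The Frzb call was absent without het line 1, 2 or 3 (adjusted p = 0.165, 0.0707 and 0.0837) or wt line 3 (0.122), and in one fit of all 24 libraries (0.132).

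For 8 of the 10 ligands, those whose mean reached 50 counts in one group or more, the genes with the most similar course over the 24 libraries were listed. Pearson's r of log2 CPM is a description here, since all genes share the days and the libraries. Wnt5b was most like Cdx2 (0.991), Sp5 (0.986) and Axin2 (0.982), and Wnt8a most like Nkx1-2 (0.986), Tnfrsf19 (0.984) and Cdx2 (0.981). Wnt3 was closest to Camkk2 (0.899), a lower value than for any other of the 8. Among the ligands that rose to day 3, Wnt5a was most like Fgf8 (0.951), Wnt6 most like Cdx4 (0.946) and Wnt3a most like Pabpc1 (0.969). Wnt7b was closest to Fbxo6 (0.952), and Wnt11 to Ubash3b (0.973), with Col4a2, one of the endoderm markers, at 0.963.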

How the data were processed

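Poly(A) RNA of 24 mESC libraries was sequenced. The authors trimmed reads with Trim Galore 0.4.4, mapped them with HISAT2 2.0.5 to GRCm38.p6 and counted reads per gene in SeqMonk; they deposited raw counts for 35591 genes, used here, and log2 RPKM values, used here only as a check of gene lengths. The kit, stranded or not, is not given per library in the sources used here. From the deposited counts, CPM were computed from each library's total times its TMM factor over all 24 libraries, and RPKM from these and exon lengths. A set of 8 group-mean columns was not used, and 0 columns were left unmapped.

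Tests used edgeR 4.0.16 (R 4.3.3) with TMM scaling, filterByExpr, the quasi-likelihood test and Benjamini-Hochberg adjustment over all tested genes at 0.05, fitted on the compared groups and tested on simulated data. Depth was 7.10 to 20.8 M counts; precision at low counts is given by exact 95% intervals or by a floor of 3 counts. Alternatives were DESeq2 1.42.0 (Wald test and size factors), library totals alone, a filter of 1 count only, one fit of all libraries, a replicate block and leaving out each library.

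Within a genotype the replicate number names the same line on every day, so day steps are paired by the labels; residuals of same-numbered libraries over 13454 genes correlated at 0.006 to 0.108 at their lowest in wt and -0.113 to 0.017 in het cells, over the 3 steps. Every pair exceeded 0.1 only in the wt step to day 3 (0.434, 0.108 and 0.190). The members and lists were chosen with earlier results of these data known. All 10 ligands were named in every comparison, Smchd1 as the check of genotype, at most 2 called genes per list and direction by largest fold change, and the 3 most similar genes of each ligand whose group mean reached 50 counts. Genes outside this rule and named in the text, such as Afp and Ttr, were chosen after their values were seen.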

Additional observations from a re-analysis of the deposited data

Results flagged for a closer look

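Wnt5b moved in opposite directions from day 0 to day 2 in the lines of the 2 genotypes. On the log2(CPM + 0.5) scale it was lower at day 2 in all 3 wt lines, with a mean change of -0.46 ± 0.24 (SD), and higher in all 3 het lines, with a mean change of 0.84 ± 0.38. The het minus wt difference was 1.29. Tested as an interaction in edgeR it had an unadjusted p of 0.0110 and an adjusted p of 0.754. Levels were low on both days, at 1.72 to 4.41 CPM over the 12 libraries. The genotypes already lay apart at day 0, at 2.42 to 4.04 CPM in wt and 1.72 to 1.95 CPM in het lines, so the opposite signs include this starting gap. Wnt5b was the only ligand with all lines opposed at any step. The share of all genes with such a pattern was not counted.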

How the results depend on the processing

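Counts of called ligands moved as follows. For het against wt cells at day 0 the count was 0, and 1 (Wnt11) without the low-count filter, by DESeq2 and with a replicate block, and 0 to 1 on leaving out one library. At day 2 it was 1, and 0 in one fit of all 24 libraries and 0 to 1 on leaving out one library. At day 3 it was 0, and 1 without the filter and with the replicate block. Summed over days it was 0, and 1 without the filter, and 0 to 4 on leaving out one line. In wt cells from day 2.5 to day 3 it was 3, beside 2923 of 15292 genes, and 7 without the filter (3505 of 22350 genes), 6 by DESeq2 (3602 of 15292), 7 in one fit of all 24 libraries (4278 of 17543), 7 with the replicate block (4687 of 15292), and 2 to 5 on leaving out one library. In het cells from day 0 to day 2 it was 7, and 4 to 6 on leaving out one library. In wt cells from day 0 to day 2 it was 4, and 6 in one fit of all 24 libraries, 3 without the filter and 3 to 5 on leaving out libraries. In het cells from day 2.5 to day 3 it was 4, and 5 under DESeq2's Wald test, without the filter, and with either other scaling of the libraries, and 4 to 6 on leaving out one library, the 6 including 2 lower ones without line 1 of day 3.

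The replicate block between genotypes joins lines that share only a number, and residuals of same-numbered lines correlated at -0.136 to 0.181. At day 0, 2 of 3 numbers correlated best with their own. Of 32 called ligand results, 26 kept their call under every setting run; none of these changed sign. Leaving out both libraries of wt line 1 from the wt steps was chosen after seeing the data, and gave 5, 6 and 4 called ligands, beside 6363 of 15744, 3875 of 15580 and 3098 of 15376 genes. Gene counts also moved, at day 0 from 0 to 369 without the filter, 60 by DESeq2, 25 with the block and 0 to 68 on leaving out one library. At day 2 they went from 85 to 384 without the filter, 218 by DESeq2, 23 in one fit and 0 to 211 on leaving out one library, and at day 3 from 1 to 274 without the filter, 103 by DESeq2, 100 with the block and 0 to 93 on leaving out one library. Summed over days they went from 1 to 190 without the filter, 127 by DESeq2 and 0 to 404 on leaving out one line, and for the wt day 3 step from 2923 to 4687 with the block and 1281 to 3098 on leaving out libraries. Wnt4 had 1 to 29 reads per library.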
